A study of Mus musculus with 4 samples.

Results

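Notch2-high basal cells were a small group of basal cells that the study separated from the main basal population of the mouse epididymis and vas deferens. The 165 cells were taken by the authors' own cell annotation, as the only population that held that number of cells, and made up 165 of the 8880 cells in the dataset. They were compared with the 917 cells of the main basal population, and where useful with the 315 low-UMI basal cells. The data came from droplet-based single-cell RNA-seq of male FVB/NJ mice aged 10 to 12 weeks, dissected into caput, corpus, cauda and vas deferens. Tissue from 4 mice (8 epididymides) was pooled and each region gave 1 library, so there were no replicate libraries, and mice cannot be told apart. Every interval below is a 95% interval that covers counting error only. The cells had been grouped by the expression of these same genes, so differences from main basal cells are given as descriptions and carry no p-values.

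Basal cells sit at the base of the pseudostratified epithelium that lines the duct, without forming its apical surface, and are known by keratins such as Krt5, Krt14 and Krt15 and by the transcription factor Trp63. Notch2 is a transmembrane receptor that is activated by Jagged and Delta-like ligands on neighboring cells, after which its cleaved intracellular domain works with the DNA-binding protein RBPJ to switch on targets such as Hes1 and Hey1. Spry2 (Sprouty2) is a feedback inhibitor of receptor tyrosine kinase signaling, and Slc39a1 (ZIP1) carries zinc into the cytoplasm.

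All 4 libraries held Notch2-high cells, 59 from vas deferens, 31 from cauda, 58 from corpus and 17 from caput. As a share of all basal cells of a library they were 15.0% (11.6 to 18.9) in vas deferens, 16.1% (11.2 to 22.02) in cauda, 11.1% (8.56 to 14.2) in corpus and 5.59% (3.29 to 8.80) in caput. The caput share was lowest, though its interval slightly overlapped that of the corpus, and the intervals of the other 3 regions overlapped. Depth was close to that of main basal cells, with a median of 4275 UMIs (unique molecular identifiers) and 1591 genes per cell against 5654 UMIs and 1806 genes. The 165 cells held 722561 UMIs and ranged from 237 to 10842 UMIs per cell, and main basal cells held 5098543 UMIs. The authors' correction for ambient RNA had removed 2.43% of the UMIs of Notch2-high cells and 1.99% of those of main basal cells, and a doublet caller marked 3 and 30 cells. Among cell barcodes, 86 cells of the dataset had a barcode found in more than 1 library, 1 of them a Notch2-high cell and 8 of them main basal cells.

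The promoters of the receptor, the zinc transporter and the feedback inhibitor that set these cells apart are shown because all 3 genes were higher in every library. Sequences are from RefSeq (build GRCm38.p6), run 5′ to 3′ on the gene's own strand from 250 bases before to 50 bases after the annotated start, and capitals mark any match to a searched motif. They lie at chr3:98013288-98013587 on the plus strand (Notch2), chr3:90247942-90248241 on the plus strand (Slc39a1) and chr14:105896770-105897069 on the minus strand (Spry2).
Notch2: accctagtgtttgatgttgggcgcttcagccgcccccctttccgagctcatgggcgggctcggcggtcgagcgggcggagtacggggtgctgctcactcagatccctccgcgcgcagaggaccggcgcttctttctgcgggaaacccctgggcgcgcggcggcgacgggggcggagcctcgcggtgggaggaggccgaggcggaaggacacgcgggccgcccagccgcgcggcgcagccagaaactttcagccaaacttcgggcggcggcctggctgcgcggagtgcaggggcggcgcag
Slc39a1: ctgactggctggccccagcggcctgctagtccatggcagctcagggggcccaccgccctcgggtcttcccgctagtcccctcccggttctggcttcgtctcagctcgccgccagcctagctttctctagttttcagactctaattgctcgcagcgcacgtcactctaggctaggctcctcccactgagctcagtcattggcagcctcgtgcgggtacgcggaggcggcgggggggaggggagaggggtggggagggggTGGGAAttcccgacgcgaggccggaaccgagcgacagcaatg
Spry2: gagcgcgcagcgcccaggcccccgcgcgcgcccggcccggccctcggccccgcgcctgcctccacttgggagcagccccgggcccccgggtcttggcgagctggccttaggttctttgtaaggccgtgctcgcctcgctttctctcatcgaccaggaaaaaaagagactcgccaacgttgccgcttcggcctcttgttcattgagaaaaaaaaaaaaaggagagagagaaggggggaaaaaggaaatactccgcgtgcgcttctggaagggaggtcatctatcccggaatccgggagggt

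Both strands were searched for TGGGAA (the core bound by RBPJ), TGANTCA (AP-1), TGACGTCA (CREB) and the CArG box of serum response factor. The Slc39a1 promoter held 1 TGGGAA, and the Notch2 and Spry2 windows held none of the 4 motifs. Of the 53 genes described below as higher in every library and spread over many cells, 40 had a promoter in the reference, of which 4 (10%) held TGGGAA, 1 TGANTCA, 2 TGACGTCA and 1 a CArG box. TGGGAA stood in 25.6% of all 32851 promoters of the same length, TGANTCA in 7.81%, TGACGTCA in 1.79% and the CArG box in 1.63%. Among the promoters of 3401 tested genes the shares were 24.4%, 6.73%, 4.47% and 2.26%, in the same order. These matches are letters in a window and say nothing about binding.

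Notch2 itself was low in UMIs and spread over many cells. Its level, in UMIs per 1000000 UMIs of the population (UPM), was 242 (208 to 281) in Notch2-high cells against 35.9 in main basal cells, a ratio of 6.75 (5.45 to 8.35). In the vas deferens, cauda, corpus and caput libraries Notch2 stood at 251, 378, 203 and 119 UPM in Notch2-high cells and at 50.5, 33.5, 29.9 and 33.7 UPM in main basal cells. The Notch2-high cells were above main basal cells in each library, from 3.52-fold in the caput, where the level rested on 8 UMIs, to 11.3-fold in the cauda. The 175 Notch2 UMIs lay in 84 of the 165 cells, so 50.9% of cells had at least 1 Notch2 UMI against 16.03% of main basal cells. After thinning every cell to 1000 UMIs, 23.6% of Notch2-high and 3.44% of main basal cells had a Notch2 UMI, against 0.581% of the main clear cells, a population where the Notch2 level was low. Another random draw at this depth gave 22.2% of Notch2-high and 4.02% of main basal cells. A cell without a Notch2 UMI is not shown to lack the transcript at this depth.

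The zinc transporter Slc39a1 had the largest ratio among genes with UMIs in most cells. It stood at 353 against 46.1 UPM, a ratio of 7.66 (6.39 to 9.18), with 255 UMIs in 109 of the 165 cells. The 4 Slc39a1 levels, in the same order, were 490.1, 364, 279 and 311 UPM against 60.2, 38.6, 35.95 and 54.2 UPM. All 4 libraries gave at least a 5.74-fold difference, and the vas deferens had the highest level in both populations. Spry2, the Sprouty inhibitor, stood at 390 against 78.5 UPM, a ratio of 4.97 (4.26 to 5.81), with 282 UMIs in 89 cells. Spry2 levels, from vas deferens back to caput, were 387, 412, 374 and 429.7 UPM against 112, 68.3, 77.97 and 55.02 UPM. The Spry2 level in Notch2-high cells was thus close to even along the duct, and the ratio was smallest in the vas deferens (3.47), where main basal cells were highest. At 1000 UMIs per cell, Slc39a1 was detected in 22.2% against 4.48% and Spry2 in 23.6% against 7.58% of cells, beside 4.65% and 1.16% of clear cells. These values are of 1 random draw. Another draw gave Slc39a1 in 27.1% against 3.67% and Spry2 in 22.2% against 7.00%, beside 6.98% and 1.16% of clear cells.

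Actb, which encodes cytoplasmic beta-actin, separated Notch2-high from main basal cells almost cell by cell. Actb was at 39893 against 7153 UPM, a ratio of 5.58 (5.49 to 5.66), and took 28825 of the 722561 UMIs. Actb stood at 33379 UPM in the vas deferens library of Notch2-high cells, 50115 in cauda, 39718 in corpus and 36406 in caput, and main basal cells lay between 5444 (caput) and 8351 UPM (cauda). Within single cells, Actb made up a median of 3.77% of UMIs (0.844 to 12.3) in Notch2-high cells and 0.601% (0 to 3.01) in main basal cells. Of the 165 Notch2-high cells, 112 lay above the highest main basal cell, and 0 of 917 main basal cells lay above the Notch2-high median. At 2% of UMIs or more stood 156 of 165 Notch2-high cells and 27 of 917 main basal cells. Of the 33 populations of at least 20 cells this was the highest Actb level, and the next was that of the 262-cell muscle population at 11964 UPM. Actg1, which encodes the gamma-actin of the same cytoskeleton, was at 8361 against 7657 UPM (1.09-fold), and Tmsb4x, which encodes the actin-binding peptide thymosin beta 4, was also at 1.09-fold. Of 29 tested genes of actin and adhesion, 2 were at least 2-fold higher and 0 lower, with a median ratio of 1.14. Besides Actb these included Myl9, a smooth muscle myosin light chain, whose 32 UMIs lay in 6 cells.

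**Figure D1:**
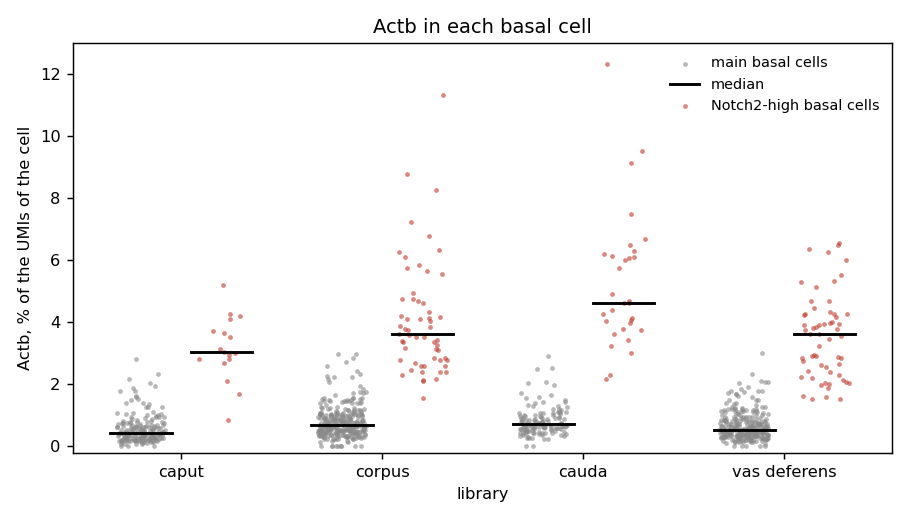
Percent of each cell's UMIs that came from Actb (y axis), one point per cell, for Notch2-high and main basal cells in each library, with bars at the medians. The Notch2-high medians lie between 3.04% and 4.63% and the main basal medians between 0.436% and 0.707%.

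Across all 4404 genes with enough UMIs to be compared (at least 20 UMIs in the Notch2-high cells, or a main basal level that would give 20 there, called tested genes although no statistical test was run), 107 (2.43%) were at least 2-fold higher and 65 (1.48%) at least 2-fold lower in Notch2-high cells. The median ratio over all tested genes was 0.983. Of the 107, 65 were higher in every library, as were 316 (7.18%) of all tested genes. The 107 genes fell into 2 kinds by how their UMIs were spread over cells. In 43 of them more than 50% of the UMIs lay in only 3 of the 165 cells, against 93 (2.11%) of all tested genes. The other 64 were spread over more cells, and 53 of these were also higher in every library.

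**Figure D2:**
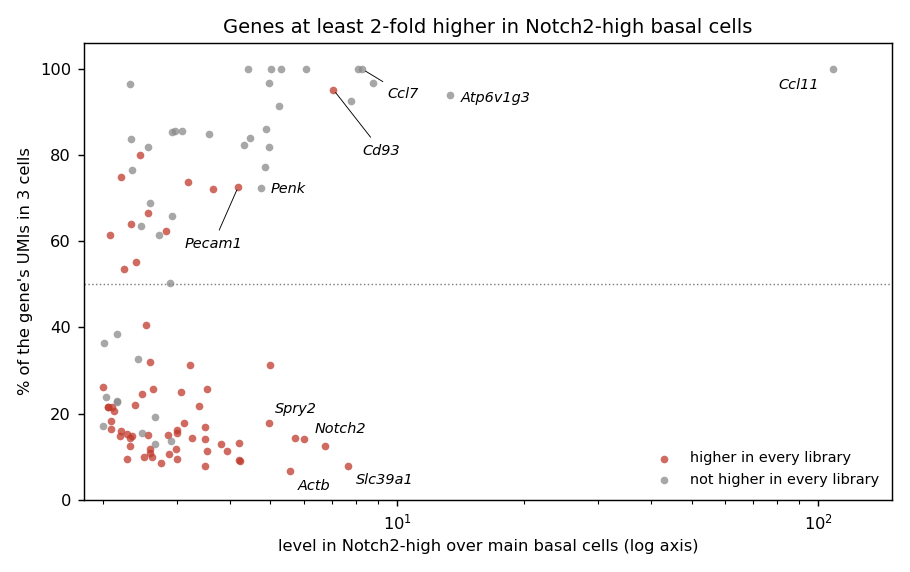
Each point is 1 of the 107 genes at least 2-fold higher in Notch2-high than in main basal cells, placed by the ratio of levels (x axis, log) and by the percent of its UMIs in the 3 cells that held most (y axis). Actb, Slc39a1, Notch2 and Spry2 sit below the dotted line at 50%, and Ccl7, Cd93, Pecam1 and Penk sit above it.

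Among the spread genes, Lrrc8a, a subunit of the volume-regulated anion channel, was at 576 against 137 UPM (4.22-fold, 3.75 to 5.76 across libraries), with UMIs in 126 of 165 cells. Sdc4, which encodes the heparan sulfate proteoglycan syndecan 4, was at 4957 against 1421 UPM (3.49-fold). The Sdc4 ratio was highest in the caput library at 5.88 and lay between 3.01 and 3.36 in the other libraries, and the level in Notch2-high cells ranged from 4686 to 5277 UPM. Sema4b, a transmembrane semaphorin, was 6.02-fold higher with 60 cells holding a UMI, and Pam, the enzyme that amidates peptide hormones, was 5.0-fold higher. The Notch ligand Jag1 was at 210 against 81.2 UPM (2.59-fold, 1.8 to 3.65 across libraries). It was higher still in low-UMI basal cells, at 336 UPM, and in the 54-cell clear population, at 458 UPM. Nrg1, a ligand of ErbB receptors, was 2.06-fold higher, ranging from 5.25-fold in the caput to 1.54-fold in the cauda. Lgr4, a receptor for R-spondins, was 3.01-fold higher. Pam, Sema4b and Lrrc8a were named by a rule on the size and consistency of the ratio, and Lgr4 was chosen after its values were seen.

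Of the other spread genes, Upf1, a helicase of nonsense-mediated mRNA decay, was 5.72-fold higher, and Rbm15, an RNA-binding protein, was 3.81-fold higher. Kdm6b, an H3K27 demethylase, was at 608 against 172 UPM (3.53-fold), and Pim1, a serine/threonine kinase, was at 1222 against 426 UPM (2.87-fold). Kdm6b and Pim1 were chosen after their values were seen. Some of these genes end next to one another on opposite strands, which matters because strand handling in counting is not given in the sources used here. Of 263 pairs of tested genes within 1000 bases of each other, 5 pairs had both genes at least 2-fold higher, and all 5 were among the 107 convergent pairs. Among them were Gdf1 with Upf1, Sema4b with Cib1, Slc24a5 with Myef2 and Inpp5f with Mcmbp. For each of these genes, including Gdf1 (4.23-fold), it is uncertain which partner of the pair the UMIs belong to.

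**Figure D3:**
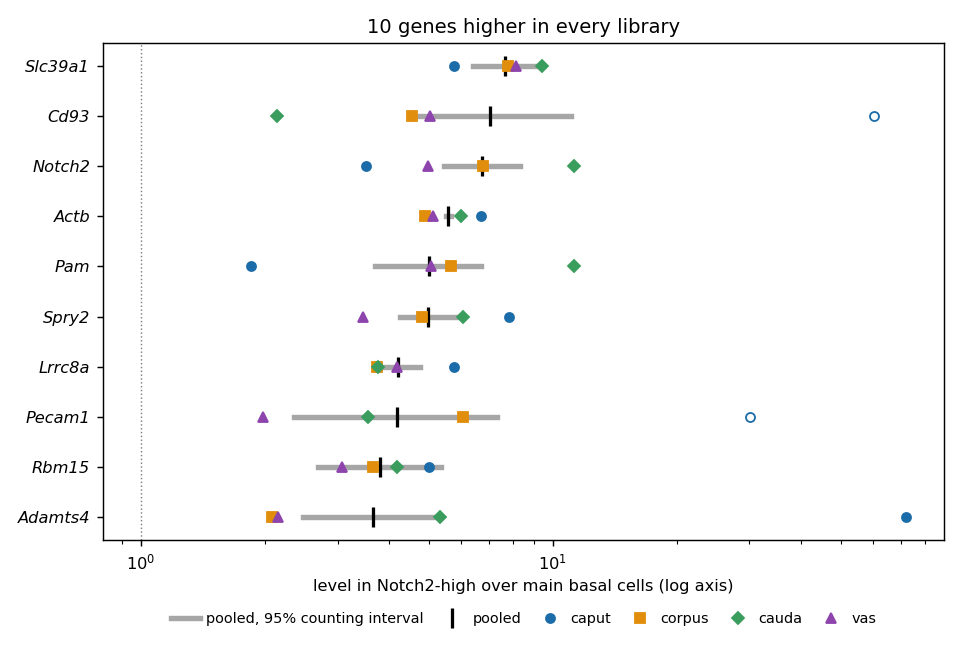
Ratio of the level in Notch2-high to main basal cells (x axis, log) for 10 of the named genes higher in every library, without genes of the convergent pairs above, pooled with its 95% counting interval and in each library. Open circles mark libraries in which main basal cells held 0 UMIs, where the ratio was taken against 3 UMIs and is a lower bound. For Notch2 the cauda lies farthest right at 11.3, and the caput farthest left at 3.52.

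Basal transcripts were present at pooled levels equal to or below those of main basal cells for the defining markers. Krt14, a basal keratin, was at 2920 against 2911 UPM, a ratio of 1.0 (0.958 to 1.05). Krt5 was at 220 against 295 UPM, Krt15 at 400 against 598 and Trp63 at 33.2 against 54.7, ratios of 0.745, 0.669 and 0.607. Of 30 tested genes of basal identity, 2 (Sdc4 and Nrg1) were at least 2-fold higher and 0 lower, with a median ratio of 1.10. A Krt5, Krt14, Krt15 or Trp63 UMI was missing from 28 of 165 Notch2-high cells (17.0%, 11.6 to 23.6) and from 55 of 917 main basal cells (5.998%). Among cells with at least 1000 UMIs, these were 14 of 144 (9.72%, 5.42 to 15.8) and 28 of 871 (3.21%, 2.15 to 4.61), against 95.5% of endothelial cells at the same depth.

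The study's remaining markers of this population behaved differently from Notch2, Slc39a1 and Spry2. The chemokine Ccl7, which attracts monocytes, had a pooled ratio of 8.27 from 75 UMIs, but all 75 lay in 3 cells of the vas deferens that held 38, 35 and 2 of them. The other 162 cells, and the caput, corpus and cauda libraries, held 0 Ccl7 UMIs. Pecam1 (CD31), an adhesion molecule of endothelial junctions, was 4.2-fold higher from 22 UMIs in 8 cells. Cd93, a receptor of endothelial and myeloid cells, was 7.06-fold higher from 42 UMIs in 4 cells. Penk, the enkephalin precursor, was 4.76-fold higher from 29 UMIs in 9 cells. Single libraries moved these ratios: without the caput Pecam1 was at 2.72, Cd93 at 4.51 and Penk at 2.96, without the vas deferens Pecam1 was at 10.6 and Cd93 at 12.3, and without the corpus Penk was at 10.2. The study chose these 7 genes on these samples, so that all 7 are higher is no independent evidence.

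Cell by cell, these transcripts went with those of other cell types. A panel of 24 endothelial genes, a clear cell panel of 6 genes and panels of stromal, immune and muscle genes were summed in every cell, and a cell with at least 10 UMIs of any of them was set apart. There were 17 such cells among the 165 (10.3%) and 55 among the 917 main basal cells (5.998%). Principal cell markers were not used to set cells apart. At least 10 of their UMIs were found in 28 Notch2-high (17.0%) and 224 main basal cells (24.4%). In 12 of the 17 there was no Krt5, Krt14, Krt15 or Trp63 UMI, against 15 of the 55. The 12 cells were led by the endothelial panel in 4, the stromal panel in 4, the clear panel in 2 and the muscle panel in 2. Of the 17 cells, 1 was called a doublet.

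**Figure D4:**
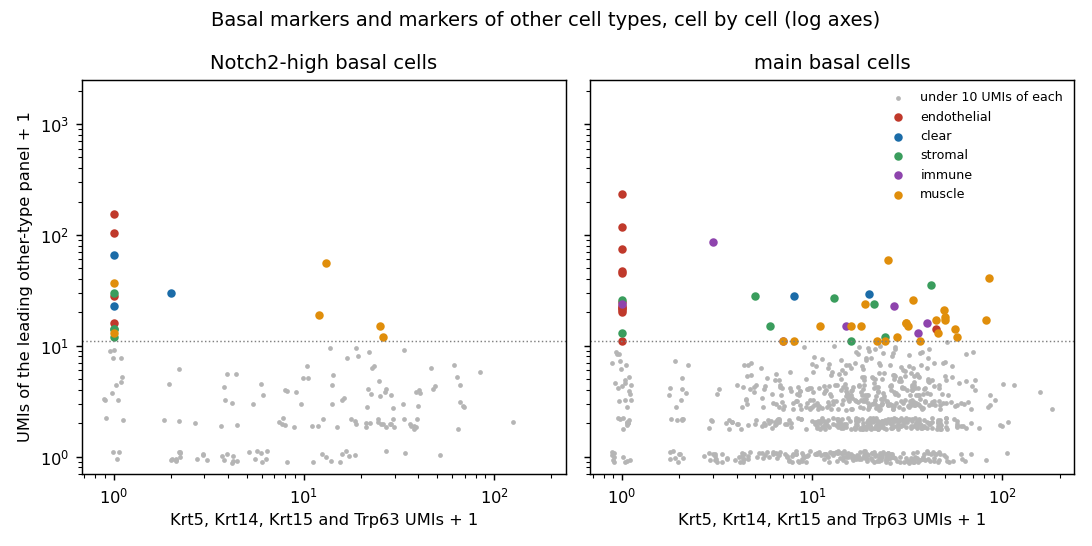
UMIs of the leading panel of another cell type (endothelial, clear, stromal, immune or muscle) plus 1 (y axis, log) against basal keratin and Trp63 UMIs plus 1 (x axis, log) for every Notch2-high cell (left) and main basal cell (right), with gray points jittered and points colored by the leading panel where it reached 10 UMIs. At the left edge of the Notch2-high plot lie the 12 cells with at least 10 UMIs of 1 of these panels and no basal keratin or Trp63 UMI.

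The 4 cells led by endothelial transcripts came 1 from each library and held 103 (vas deferens), 15 (cauda), 27 (corpus) and 152 (caput) UMIs of the endothelial panel. They held 18 of the 22 Pecam1 UMIs and all 42 Cd93 UMIs of the population, with 0 Notch2 and 0 Krt14 UMIs. Pecam1 and Cd93 belong to the endothelial panel, but without them the 4 cells still held 67, 11, 20 and 139 UMIs of the panel, in the same order. Of the stromal-led cells, 2 from the vas deferens held 73 of the 75 Ccl7 UMIs, all 46 UMIs of Ccl11 (eotaxin, a chemokine for eosinophils) and 24 of the 29 UMIs of Ccl2. Together the stromal-led cells held 22 of the 29 Penk UMIs. Clear-led cells, 2 without and 1 with a Krt14 UMI, held 96 of the 102 UMIs of Atp6v1g3, a clear cell subunit of the proton pump. Atp6v1g3 belongs to the clear panel and in part chose these cells, which held 7, 7 and 6 UMIs of the rest of the panel. Hence most UMIs of Ccl7, Cd93, Pecam1 and Penk lay in few cells that lacked basal keratins, whereas Actb was above 1.70% of UMIs in each of the 17 cells. Without all cells set apart, in both populations, Ccl7 was at 0.673-fold from 2 UMIs and Penk at 1.61-fold (0.478 to 4.33) from 5. Pecam1 was then at 5.55-fold (0.813 to 32.8) from 3 UMIs, an interval that includes 1, because its main basal level also fell, to 0.837 UPM.

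Such transcripts were looked for in every cell at 1 depth. After each cell was thinned to 1000 UMIs, at least 2 UMIs of the endothelial panel were found in 6 of 144 Notch2-high cells (4.17%, 1.54 to 8.85), against 19 of 871 main basal cells (2.18%, 1.32 to 3.39). The same share was 85.0% in endothelial cells and 1.16% in clear cells, which should lack these genes (median depths 2590 and 5328 UMIs). Without thinning it was 21.8% of Notch2-high and 19.96% of main basal cells. For the clear panel, 3 of 144 Notch2-high cells (2.08%, 0.432 to 5.97) and 2 of 871 main basal cells (0.230%) passed, against 91.9% of clear cells and 0 of 200 endothelial cells (a count of 0 here cannot exclude a share below 1.5%). Without thinning it was 4.24% of Notch2-high and 0.763% of main basal cells. Thinning left out 21 Notch2-high, 46 main basal, 45 endothelial and 44 clear cells. Low-UMI basal cells passed at 9.09% (4.79 to 15.3) for the endothelial panel. The endothelial share of the Notch2-high cells overlapped that of main basal cells within counting error.

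As a summed level, the endothelial panel stood at 584 UPM in Notch2-high cells and 270 in main basal cells, which is 6.17% (5.58 to 6.81) and 2.86% of the level in endothelial cells. Without the 17 and 55 cells set apart, the levels were 177 and 134 UPM. Most of that remainder was 1 gene, Ly6c1, at 127 and 100 UPM. Over all cells Ly6c1 stood at 163 UPM in Notch2-high and 122 in main basal cells. Of the 24 endothelial panel genes, 8 had enough UMIs to be compared. A gene could reach that minimum through the Notch2-high cells alone, so the counts for rare markers here are descriptions and support no difference. The clear panel stood at 174 against 17.3 UPM, and at 12.4 against 6.91 without the cells set apart. Among macrophage and other immune genes 1 was tested and 0 were higher or lower, and the complement genes C1qa, C1qb and C1qc were at 0 UMIs. Of the stromal markers 1 of 2 tested was higher, of muscle markers 2 of 4 and of principal cell markers 2 of 8 (with 2 lower), and of Schwann cell markers 0 of 1. Red cell markers gave 4 UMIs in all and were not tested.

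The comparison was also restricted to cells with a basal keratin or Trp63 UMI and under 10 UMIs of each panel used above to set cells apart. This left 132 Notch2-high and 822 main basal cells, and cells with principal cell markers were kept. This restriction was chosen after seeing the data. Notch2 was then 7.49-fold, Slc39a1 8.06-fold, Spry2 5.02-fold, Actb 5.67-fold, Sdc4 3.72-fold and Lrrc8a 4.43-fold higher, whereas Pam was at 3.55-fold, down from 5.0-fold in all cells. Ccl7 fell to 2 UMIs and a ratio of 0.753, Penk to 0.983 and the aggrecanase gene Adamts4 to 0.942, and Pecam1 and Cd93, both in the panel used for the restriction, had 0 UMIs left. Of 3966 genes tested there, 75 were at least 2-fold higher and 72 lower, of which 65 and 46 were also called in all cells.

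Of the Notch pathway, 32 genes were listed and 11 were tested, of which 2 (Notch2 and Jag1) were at least 2-fold higher and 0 lower, with a median ratio of 1.07. The target gene Hes1, a transcriptional repressor, was at 662 against 660 UPM, although it ran along the duct from 341 UPM in the caput of Notch2-high cells to 1280 in the vas deferens. The target Hey1 had 3 UMIs and Nrarp 1 UMI in all 165 cells, so no difference in these was detectable at this depth. Notch1, the paralogous receptor, was 1.29-fold (0.887 to 1.83) and the ligand Dll1 was 0.867-fold. The pooled Hes1 ratio had an interval of 0.909 to 1.10, and it was above 1 in the caput only (2.05-fold, from 23 UMIs).

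Genes of Sprouty and MAP kinase feedback gave the same kind of result, with 1 of 13 tested (Spry2) higher, 0 lower and a median ratio of 1.06. Spry1, a second Sprouty inhibitor, was 0.838-fold (0.558 to 1.22), and Dusp6, a phosphatase of ERK, was 0.954-fold (0.747 to 1.21). Dusp3, a phosphatase gene that was not on this list, was 2.85-fold higher (2.22 to 3.65). Among zinc transporters and metallothioneins, 1 of 9 tested (Slc39a1) was higher, with a median ratio of 1.0. The zinc-binding Mt1, at 10095 against 12251 UPM, was 0.824-fold, and the importer Slc39a10 was 1.6-fold (1.06 to 2.36). In each of these lists, as chosen here, a single gene or a pair was past 2-fold and the median ratio lay near 1.

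Immediate early and stress genes lay lower on the whole, with 0 of 33 tested at least 2-fold higher, 4 lower and a median ratio of 0.794. The transcription factor genes Fos (0.242-fold), Klf2 (0.329-fold), Fosb (0.374-fold) and Egr1 (0.384-fold) were the 4. Fos levels from vas deferens to caput were 87.1, 103, 73.6 and 296 UPM in Notch2-high cells, against 235, 91.4, 134 and 1299.9 UPM in main basal cells. Fos, Fosb and Egr1 were lower in the caput, corpus and vas deferens, and in the cauda they stood at ratios of 1.13, 1.19 and 1.38. The caput gave 189 of the 917 main basal cells but 17 of the 165 Notch2-high cells, and main basal cells of the caput had the highest of these Fos levels.

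Among the lower genes named by the rule, Mmp7, a matrix metalloproteinase, was at 16.6 against 66.1 UPM (0.251-fold) from 12 UMIs, Itgb5, an integrin subunit, was 0.373-fold and Igfbp2, an IGF-binding protein, 0.402-fold. These pooled ratios differed from those of single libraries. Main basal cells of the caput had Mmp7 at 158 UPM and Itgb5 at 154 UPM, where Notch2-high cells held 0 and 1 UMIs. In the corpus Mmp7 was at 0.768-fold, Itgb5 at 0.855-fold and Igfbp2 at 0.395-fold. In the cauda they were at 0.229-fold, 0.762-fold and 0.593-fold. Outside basal cells, 32 of the 65 lower genes (49.2%) had their highest level in a principal cell population, against 23.5% of all tested genes. Of the 65, 38 were lower in every library, and without the caput library 25 genes were lower. The mitochondrial (109 tested, median 0.964) and ribosomal protein genes (80 tested, median 0.901) had 0 genes past 2-fold in either direction, and of cell cycle genes 1 was tested and 0 were called.

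Chemokines and cytokines were mostly set by few cells. Of 14 tested, 4 were higher (Ccl2, Ccl7, Ccl11 and Il6), each with more than 50% of its UMIs in 3 cells, and 1, the neutrophil chemokine Cxcl1, was lower (0.490-fold, 0.428 to 0.560), though not in the caput (1.39-fold). Il6 had 66 UMIs in 13 cells.

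Against every population of at least 20 cells, 129 of the 4404 tested genes (2.93%) had their highest level in Notch2-high cells. An even split over the 33 populations would give each 1 in 33, so this count does not set the cells apart. Only genes with at least 20 UMIs in the Notch2-high cells were counted. Of the 129, 2 (Actb and the small GTPase gene Rap2b) were at least 2 times as high as in any other population. Rap2b was at 951 against 380 UPM in main basal cells (2.5-fold), with UMIs in 126 cells. Slc39a1 ranked first of 33 populations at 353 UPM, but its interval overlapped that of the 319-cell stromal population at 310. Notch2 ranked second, below the 262-cell muscle population at 327 UPM and next to the 319-cell stromal population at 242. Spry2 also ranked second, below the 226-cell stromal population of the vas deferens at 488 UPM. Sdc4 ranked first, and Sox9, an HMG-box transcription factor, was also highest here, at 494 against 274 UPM. Hence Notch2 marked these cells against the main basal cells, whose median depth was higher, and was not highest in them across the tissue. Levels of different genes are not per length and are not compared with each other.

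**Figure D5:**
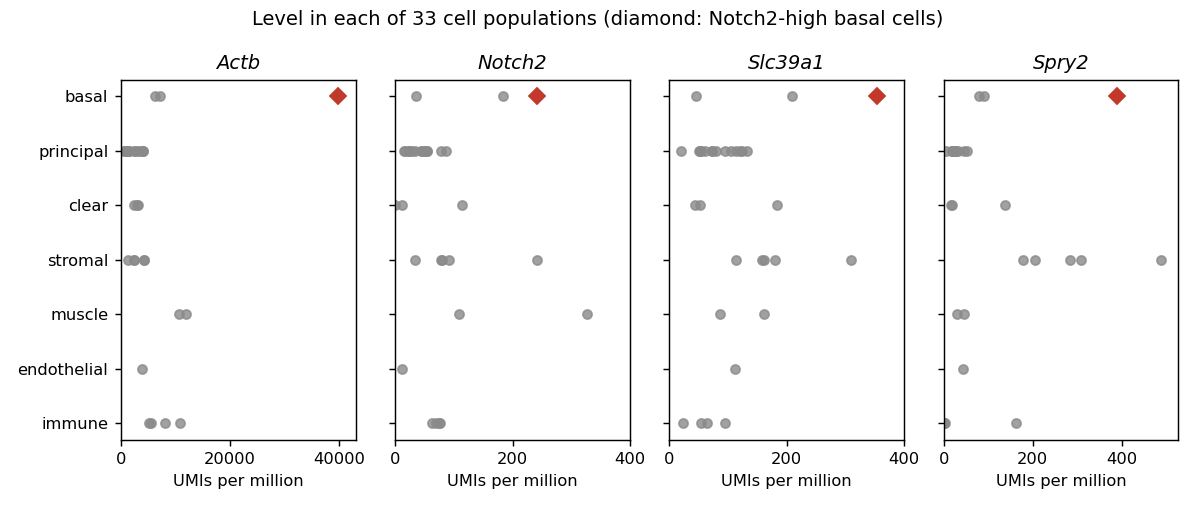
Level in UPM (x axis, linear) of Actb, Notch2, Slc39a1 and Spry2 in the 33 populations of at least 20 cells, one point per population in rows by cell type, with Notch2-high cells as a diamond. Notch2-high cells stand apart for Actb at 39893 UPM, and for Notch2 they lie at 242, below a muscle population at 327.

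The low-UMI basal cells, with a median of 900 UMIs, were nearer to Notch2-high cells in some of these genes. Notch2 was at 242 UPM in Notch2-high cells and 183 in low-UMI basal cells, a ratio of 1.32 whose interval (0.986 to 1.8) includes 1. Slc39a1 was 1.69-fold (1.29 to 2.22) and Sdc4 1.36-fold (1.27 to 1.45) higher in Notch2-high cells. Actb was 6.38-fold and Spry2 4.27-fold higher in Notch2-high than in low-UMI cells. In the other direction, the apolipoprotein gene Apoe was at 18425 against 80195 UPM (0.230-fold) and the claudin gene Cldn4 was 0.441-fold. Jag1 was at 210 UPM in Notch2-high and 336 in low-UMI basal cells, Lgr4 at 148 and 162, and Nrg1 at 378 and 360. The Actb ratio was much the same at every depth: 5.60 among cells under 2000 UMIs, 5.49 from 2000 to 5000 and 5.61 above. The Notch2 ratio in the same classes was 6.77 (1.40 to 64.3), 5.09 (3.36 to 7.67) and 7.49 (5.79 to 9.70).

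In the authors' first round of clustering, 156 of the 165 cells fell into cluster 20, 7 into cluster 1 and 2 into cluster 9. Cluster 20 also held 51 cells that the authors finally placed with the main basal population, and these lay between the groups. Their median Actb share was 2.05% against 3.81% in the Notch2-high cells of the cluster and 0.569% in main basal cells of other clusters. Their levels were 115 UPM for Notch2, 189 for Slc39a1 and 3065 for Sdc4, against 31.9, 38.9 and 1339 in main basal cells of other clusters. The boundary of the population was thus one of degree in these genes, and the annotation places the cells on each side.

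Cells with a high Actb share also occurred in other populations, and the genes of the Notch2-high cells were looked at there. A limit of 2% of UMIs was used, which was chosen after seeing the data and cuts a continuous range, and cells were not balanced by library or depth. At least 10 such cells were found in 9 other populations, 256 cells in all. In the 975-cell stromal population, 26 such cells had Notch2 at 7.26-fold (5.15 to 10.03), Slc39a1 at 8.57-fold and Spry2 at 3.14-fold the level of the other cells. Sdc4 was at 3.5-fold there. In the 240-cell muscle population, 52 such cells had Notch2 at 5.33-fold, Slc39a1 at 6.89-fold, Spry2 at 9.41-fold and Sdc4 at 2.55-fold. In the 400-cell principal population, 35 such cells had Notch2 at 7.49-fold (3.64 to 14.2) from 12 UMIs. Main basal cells themselves held 27 such cells, with Notch2 at 3.36-fold (1.88 to 5.62), Slc39a1 at 5.33-fold and Sdc4 at 2.43-fold. The 104-cell macrophage population held 11, with Notch2 at 2.58-fold (0.749 to 7.21), an interval that includes 1, Slc39a1 at 4.89-fold from 10 UMIs, Spry2 at 0 UMIs and Sdc4 at 0.813-fold. Over the 9 populations the Notch2 ratio ran from 2.58 to 10.9 and the Slc39a1 ratio from 4.89 to 10.3. Median depths were 2958 against 5624 UMIs in the 240-cell muscle population and 3382 against 3821 in the stromal one. The part of depth in these values was not tested.

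Notch2, Slc39a1, Spry2 and Sdc4 were also compared between a shallower and a deeper population of 1 cell type. In low-UMI against main basal cells (median depths 900 and 5654 UMIs), Notch2 was at 5.09-fold, Slc39a1 at 4.54-fold, Sdc4 at 2.57-fold, Spry2 at 1.17-fold and Actb at 0.874-fold. In the 262-cell against the 240-cell muscle population (1081 and 5424 UMIs), Notch2 was at 3.03-fold, Slc39a1 at 1.87-fold and Actb at 1.117-fold. In the 319-cell against the 975-cell stromal population (670 and 3821 UMIs), Notch2 was at 3.13-fold, Slc39a1 at 1.96-fold and Actb at 1.0-fold. In the 54-cell against the 216-cell clear population (699 and 5328 UMIs), Notch2 was at 10.4-fold, Slc39a1 at 4.16-fold and Actb at 0.812-fold. That Notch2 ratio rested on 5 and 12 Notch2 UMIs. The authors' label of the 54-cell population also names Krt14, a basal keratin. Spry2 in the muscle, stromal and clear pairs was at 1.49-fold, 1.59-fold and 7.87-fold, and Sdc4 at 1.73-fold, 2.02-fold and 5.05-fold. Notch2 and Slc39a1 were thus also higher in the shallower population of each of these 4 pairs, with Actb between 0.812-fold and 1.117-fold. Many other genes also differed between the populations of a pair, in both directions. In the basal, muscle, stromal and clear pairs, 23.5%, 33.1%, 17.1% and 33.1% of tested genes were at least 2-fold higher in the shallower population. At least 2-fold lower there were 11.3%, 11.5%, 7.02% and 41.1%. The median ratios over tested genes were 1.24, 1.56, 1.25 and 0.885, in the same order.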

How the data were processed

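Droplet single-cell RNA-seq gave 1 library per region, and the deposited table holds UMI counts for 16892 genes, made by the authors. Per the submitters' processing notes, bcl2fastq and HISAT2 2.0.4 were used with mm10. By the study's methods, UMIs were counted per gene without multimapping reads, and ambient RNA was removed per cell with a modified SoupX. The deposited metadata gave each cell's library, population and first cluster, with t-SNE coordinates and size factors as scores made by the authors, which were not used. Library totals ran from 4408989 to 10744928 UMIs. The members and gene lists were chosen with earlier results of these data known.

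UMI counts were summed per population and expressed as UMIs per 1000000 UMIs. Intervals were exact Poisson (levels), exact conditional binomial (ratios) and Clopper-Pearson (shares). Genes entered with 20 UMIs or the equivalent main basal level and were called at 2-fold, with a floor of 3 UMIs against a count of 0. No tests were run. Named were the 7 genes the study gives, the 15 with the largest ratio higher and 10 lower on the same side of 1 in every library, the 10 highest relative to all other populations, and list members with the highest level or largest ratio. Some of these genes are not reported here. Doublets were called per library from simulated pairs, assuming 0.8% per 1000 cells, and were kept. Scripts were tested on simulated data. Python 3.11.15, numpy 2.4.6, scipy 1.17.1, pandas 2.3.3 and scikit-learn 1.9.0 were used. Alternatives varied the fold, the UMI minimum, the depth, the averaging, the reference cells and the panels, and left out each library. A further 3 were chosen after seeing the data: leaving out cells with 10 UMIs of another type's panel (principal cell markers aside), keeping only cells that also held a basal keratin or Trp63 UMI, and comparing the share of cells with a UMI at 1000 UMIs.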

Additional observations from a re-analysis of the deposited data

Results flagged for a closer look

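The chemokine gene Cxcl1 differed in direction between regions. Its level in Notch2-high relative to main basal cells was 1.39-fold in the caput, 0.368-fold in the corpus, 0.504-fold in the cauda and 0.490-fold in the vas deferens. The caput ratio rested on 96 UMIs in 6 cells, of which 1 cell held 82. With 1 library per region, this difference between regions was not tested.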

How the results depend on the processing

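The counts of higher and lower genes (107 and 65) moved with the limits: 268 and 270 at 1.5-fold, 48 and 10 at 3-fold, 209 and 215 with a minimum of 10 UMIs, and 51 and 15 with 50. They were 455 and 109 for means over cells, and 200 and 322 for shares of cells with a UMI. The lower genes numbered 30 with main basal cells weighted to the library mix and 40 in cells with no endothelial panel UMI. Leaving out each library gave 89 to 109 higher and 25 to 78 lower genes, lowest without the caput for both. The endothelial share of 4.17% of cells was 17.4% at 1 UMI, 9.68% at 2000 UMIs, 21.8% unthinned and 71.5% with a wider panel, and the clear share of 2.08% was 21.5% with the wider panel. Main basal cells gave 12.6% at 1 UMI and 71.3% and 19.3% with the wider panels. The endothelial level of 6.17% became 13.7% with the wider panel, 3.31% above main basal cells, 1.87% without the cells with 10 UMIs of another panel, and 4.15% (without the caput) to 8.57% (without the corpus) on leaving out each library. Ratios reversed for Ccl7, which went to 0.673 without cells with 10 UMIs of another type's panel and 0.753 in keratin-positive cells alone, and for Penk, which went to 0.983 there. As a share of all cells of a library in place of basal cells, the population was 1.68% in vas deferens, 1.92% in cauda, 2.49% in corpus and 1.19% in caput. Notch2 (5.38 to 7.54), Slc39a1 (4.96 to 8.43) and Spry2 (3.12 to 6.11) kept their direction in every alternative run. Why these values moved was not tested beyond the fewer cells or genes each setting holds. No test was run, paired by library or not, because the cells were grouped by these same genes and each region is 1 library. The ratios within each library stand beside the pooled ones. Low counts limit single genes, libraries and cells, cells of 1 library are not replicates, and the boundary of the population is the authors'.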

Other observations

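The genes higher in Notch2-high cells were also sorted by the cell type, outside basal cells, in which their level was highest. Of the 43 genes with more than 50% of their UMIs in 3 cells, 11 were highest in endothelial, 11 in stromal, 8 in principal, 7 in clear, 4 in muscle and 2 in immune cells. Of the 64 spread genes, 16 were highest in muscle, 15 in clear, 12 in principal, 9 in stromal, 9 in immune and 3 in endothelial cells. Endothelial cells led 25.6% of the concentrated genes, 4.69% of the spread genes and 5.15% of all tested genes. A gene rare in main basal cells was tested only where Notch2-high cells held enough of its UMIs, which can be a few cells. These shares are therefore descriptions and support no difference. Transcripts of Il24, a cytokine of the IL-10 family, had their highest level of any population in Notch2-high cells, but its 42 UMIs lay in 2 cells.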
